A study of Mus musculus with 6 samples.

Results

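The milk protein genes described here are the caseins *Csn1s1*, *Csn2*, *Csn1s2a*, *Csn1s2b* and *Csn3*, the whey protein genes *Wap* and *Lalba*, and the milk secretion genes *Glycam1*, *Btn1a1* and *Ltf*. They were chosen by gene symbol, and all 10 were found among the 15280 genes of the expression table. The RNA-Seq libraries came from 3 parous female BK5.ATF3 mice, which carry an ATF3 transgene driven by the bovine keratin 5 promoter in basal epithelial cells. From each mouse, 1 mammary tumor (T) and the normal mammary gland beside it (M) were sequenced, so n = 3 for each tissue. The libraries are named by tissue and mouse, with M11035 and T11035 from one mouse, M11640 and T11640 from another and M9232 and T9232 from the last. Both tissues were transgenic, each female had raised 1 litter, tumors arose at an age of 6 to 12 months, and mice were sacrificed when a tumor reached 1.5 cm, so no wild-type or non-parous gland enters the comparison. The time since weaning of each mouse was not given in the sources used here.

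Caseins are the phosphoproteins that form the micelles of milk, whereas the whey proteins stay in solution. In the mammary gland, their genes are transcribed by alveolar luminal cells under prolactin, whose receptor activates JAK2 and the transcription factor STAT5. Dimers of STAT5 bind the palindrome TTCNNNGAA, and the factor ELF5 acts beside STAT5 in alveolar cells. After weaning the alveoli are lost and milk protein transcripts fall, but they do not vanish from a parous gland.

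In the tumors, 9 of the 10 milk protein genes were called lower than in the glands and 0 were called higher, against a background of 13.7% of all tested genes called lower and 14.5% called higher. *Lalba*, *Wap* and *Csn1s2b* held 0, 2 and 7 fragments over the tumors, below the authors' filter of 10, so they entered the table through the glands. The lower calls and the order of *Lalba* and *Wap* are therefore not independent of that filter. Calls came from limma on log2(CPM + 0.5), where CPM are fragments scaled to the effective library size, and needed both a log2 fold change of at least 1 in size and an adjusted p no higher than 0.05. The median log2 fold change was -4.66 over the 10 genes and -0.00276 over all genes tested. All 3 tumors lay below all 3 glands for 9 of the 10 genes, against 26.3% of all genes, and the exception was *Csn1s2b*. Without normal gland M9232, a library that stood apart as described next, 9 genes were still called lower. In bulk tissue, fewer cells of a type and less RNA per cell cannot be told apart.

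**Figure D1:**
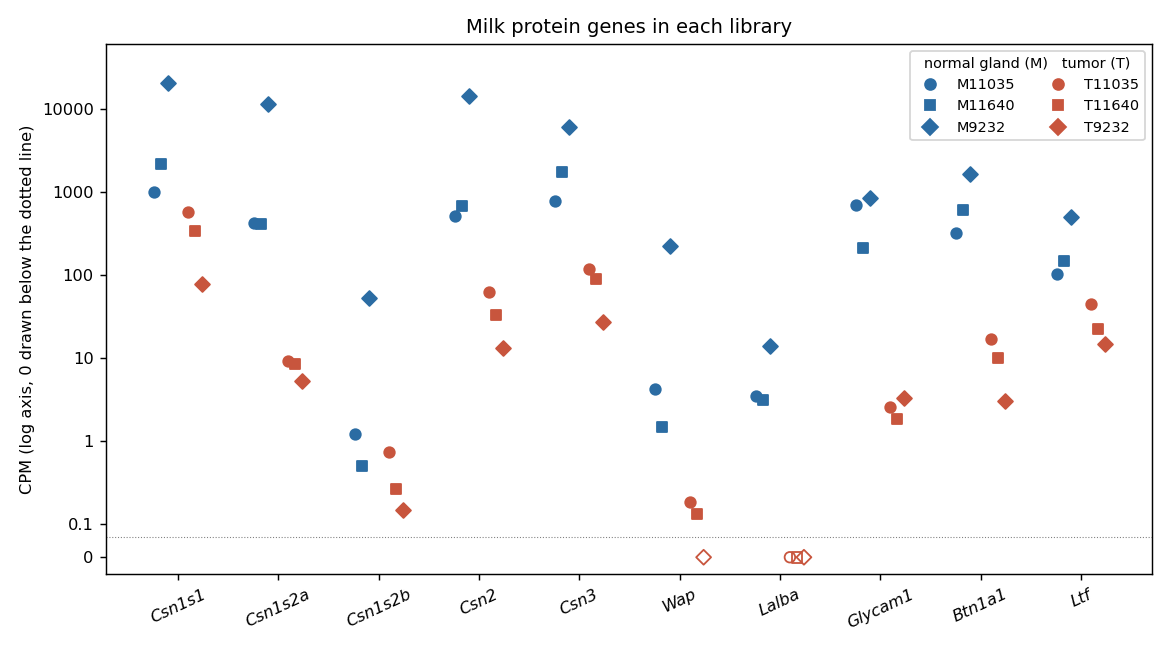
CPM (log axis, with 0 drawn below the dotted line) of the 10 milk protein genes in each library, with normal glands in blue, tumors in red and a marker shape for each mouse. Normal gland M9232 was the highest gland for all 10 genes, and *Lalba* was at 0 in all 3 tumors.

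Between 4750989 and 7806908 fragments were counted per library, and the floor of 3 fragments corresponded to 0.393 to 0.610 CPM. Some libraries stood apart. Normal gland M9232 had the highest level of all 10 milk protein genes among the glands, whereas it was the highest gland for 31.4% of all genes. Skeletal muscle transcripts also set the glands apart, since *Myh4*, a fast myosin heavy chain, was at 2779 CPM in M11035 and 1107 CPM in M11640 but at 0.958 CPM in M9232. The summed level of the 5 muscle markers ranged from 4.24 to 3679 CPM over the glands and from 7.08 to 13.8 CPM over the tumors. The labelled tissue was checked against epithelial markers, and *Epcam*, a surface protein of epithelial cells, was at 105, 122 and 227 CPM in M11035, M11640 and M9232 and at 194, 225 and 213 CPM in T11035, T11640 and T9232. Thus, epithelial transcripts were present in every library. The summed level of the 10 epithelial markers ranged from 229 to 504 CPM over the glands and from 2029 to 2673 CPM over the tumors. Much of this rise came from the basal keratins *Krt14* and *Krt5* in the list. *Krt14* was at 6.10 to 19.8 CPM in the glands and 440 to 686 CPM in the tumors. *Krt5* was at 9.96 to 36.1 CPM in the glands and 913 to 1055 CPM in the tumors. Adipocyte transcripts were abundant in the glands and low in the tumors, with a summed level of the 12 markers of 9315 to 16779 CPM in the glands and 318 to 518 CPM in the tumors. What part these differences in tissue make-up had in the milk protein results was not tested.

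The 5 casein genes lie in 1 cluster on chromosome 5, over 266 kb from 88095249 to 88361690 (mm9), in the order *Csn1s1*, *Csn2*, *Csn1s2a*, *Csn1s2b* and *Csn3*. *Csn2* is on the minus strand and the other 4 are on the plus strand. RefSeq promoter sequences, from 250 bases before to 50 bases after the annotated start (GRCm38.p6), were found for 7 of the 10 genes. No sequence was matched for *Csn1s2b*, *Csn3* and *Btn1a1*. Each of the 7 sequences occurred exactly once on its chromosome in mm9, so mm9 positions are given. Both strands were searched for TTCNNNGAA, which reads the same on both, and 4 of the 7 promoters held 1 match each. Of 32851 mouse promoters of the same length, 8.30% held at least 1 match. The 4 matches are shown because they are the letters that STAT5 is known to recognise, in genes that were each called lower in the tumors. Each is printed 5′ to 3′ on the strand of its gene, with the palindrome in capitals and 10 bases on either side.
Csn1s1: tttgtaacaaTTCTTAGAAtttatgtaaa
Csn2: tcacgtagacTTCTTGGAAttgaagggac
Csn1s2a: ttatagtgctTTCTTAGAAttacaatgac
Glycam1: gccaactcatTTCCCAGAAacaccaattc

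These windows span chr5:88095123-88095151 (plus strand), chr5:88128525-88128553 (minus strand), chr5:88203485-88203513 (plus strand) and chr15:103395639-103395667 (minus strand). Relative to the RefSeq start, the first base of the palindrome was at -100 in *Csn1s1*, -93 in *Csn2*, 21 in *Csn1s2a* and -145 in *Glycam1*. Relative to the start in the mm9 annotation (GENCODE vM1), it was at -116, -97, -97 and -148, so that the *Csn1s2a* match lies before the start in one annotation and after it in the other. *Csn1s1* and *Csn1s2a* shared the same 9 letters. No match was found in these windows of *Wap*, *Lalba* and *Ltf*, which says only that these letters are not there. A match is not evidence of binding in these tissues, which was not measured.

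*Csn1s1* encodes αS1-casein, one of the calcium-sensitive caseins. Its level was 989, 2173 and 20415 CPM in glands M11035, M11640 and M9232 and 568, 335 and 77.5 CPM in tumors T11035, T11640 and T9232. The groups did not overlap, but the lowest gland and the highest tumor came from the same mouse and lay close together. The log2 fold change was -3.84 (SE 1.07, adjusted p = 0.0204 by limma), and the difference within each mouse was -0.80, -2.70 and -8.03. Without gland M9232 it was -2.58 (adjusted p = 0.0227). The call was lost without tumor T11640 (adjusted p = 0.0538) or T9232 (-3.01, adjusted p = 0.0845).

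*Csn2* encodes β-casein, a major casein of mouse milk. It was measured at 506, 670 and 14121 CPM in the glands and at 62.5, 32.8 and 13.0 CPM in the tumors. Glands M11035 and M11640 were close to each other and M9232 was far above both, and no tumor reached the lowest gland. The log2 fold change was -5.79 (SE 1.15, adjusted p = 0.00413 by limma) and -4.26 without gland M9232 (adjusted p = 3.89e-04).

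*Csn1s2a* encodes an αS2-type casein. It stood at 418, 410 and 11298 CPM in the glands and 9.12, 8.52 and 5.24 CPM in the tumors. This was the casein with the greatest fall by the fitted value, with a log2 fold change of -7.30 (SE 1.11, adjusted p = 0.00103 by limma). Without gland M9232, the other glands differed by an SD of only 0.0196 on the log2 scale, and the fold change was -5.71 (adjusted p = 2.77e-06).

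*Csn3* encodes κ-casein, which stabilizes the surface of the micelle. Its level was 772, 1735 and 6020 CPM in the glands and 118, 89.6 and 27.4 CPM in the tumors. The fitted log2 difference was -4.91 (SE 0.74, adjusted p = 0.00102 by limma) and -4.11 without gland M9232 (adjusted p = 7.70e-04). Parts of its transcript, 76 to 89 bp long, were 80.9% to 88.8% identical to 4 other genes, and any effect on its fragment count was not tested. No such match to another protein-coding transcript was found for the other 9 genes.

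*Csn1s2b*, the neighbour of *Csn1s2a*, was near the floor. It was at 1.22, 0.496 and 52.1 CPM in the glands and at 0.744, 0.262 and 0.150 CPM in the tumors, so only gland M9232 was clearly above the rest. Of its 390 gland fragments, 9 came from the other glands together, against 7 fragments in all 3 tumors. The log2 fold change was -2.40 (95% interval -5.30 to 0.50, adjusted p = 0.166 by limma) and -0.62 without gland M9232 (adjusted p = 0.367). In edgeR's quasi-likelihood test on the recovered fragments, it was called lower (-5.59, adjusted p = 0.0372), but without gland M9232 it was not called (-1.16, adjusted p = 0.379).

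**Figure D2:**
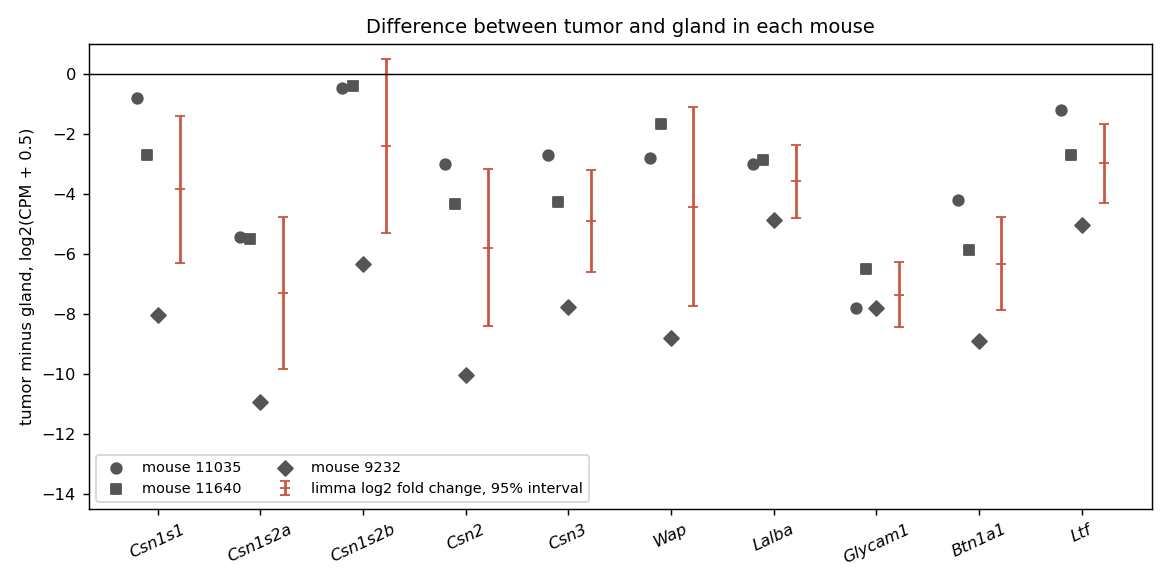
Tumor minus gland on the log2(CPM + 0.5) scale for each mouse (grey markers), with the limma log2 fold change and its 95% interval (red), for the 10 milk protein genes. The difference was below 0 in all 3 mice for all 10 genes, reaching -10.94 for *Csn1s2a* in the mouse of M9232, and the interval of *Csn1s2b* included 0.

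Together the caseins took 0.278%, 0.493% and 5.15% of the fragments in glands M11035, M11640 and M9232. In tumors T11035, T11640 and T9232 they took 0.0796%, 0.0456% and 0.0118%. The 95% Wilson interval of each share, which covers counting error only, was narrow beside these differences, from 5.13% to 5.16% in M9232 and from 0.0111% to 0.0127% in T9232. The lowest gland was 3.49-fold above the highest tumor, and the groups did not overlap. An exact permutation test, two-sided and without the pairing by mouse, gave p = 0.1, the smallest p that unpaired 3 against 3 allows. The shares differed 18.5-fold among the glands and 6.72-fold among the tumors.

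The caseins did not fall by the same amount. Of the summed casein CPM, *Csn1s1* made up 36.8%, 43.6% and 39.3% in the glands but 74.9%, 71.9% and 62.8% in the tumors. *Csn1s2a* made up 15.6%, 8.21% and 21.8% in the glands and 1.20%, 1.83% and 4.25% in the tumors. The ratio of *Csn1s1* to *Csn2*, which does not depend on the scaling of the libraries, was 1.95, 3.24 and 1.45 in the glands and 9.08, 10.2 and 5.94 in the tumors. That of *Csn1s1* to *Csn1s2a* was 2.37, 5.30 and 1.81 in the glands and 62.2, 39.3 and 14.8 in the tumors. Neither ratio overlapped between the tissues, and each gave an exact permutation p = 0.1, the smallest possible. In contrast, the ratio of *Csn3* to *Csn2* was 1.53, 2.59 and 0.426 in the glands and 1.89, 2.74 and 2.10 in the tumors, which overlapped (exact permutation p = 0.3). Gland M9232 had the smallest *Csn3* share of all 6 libraries, 11.6%, against 28.7% and 34.8% in the other glands.

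**Figure D3:**
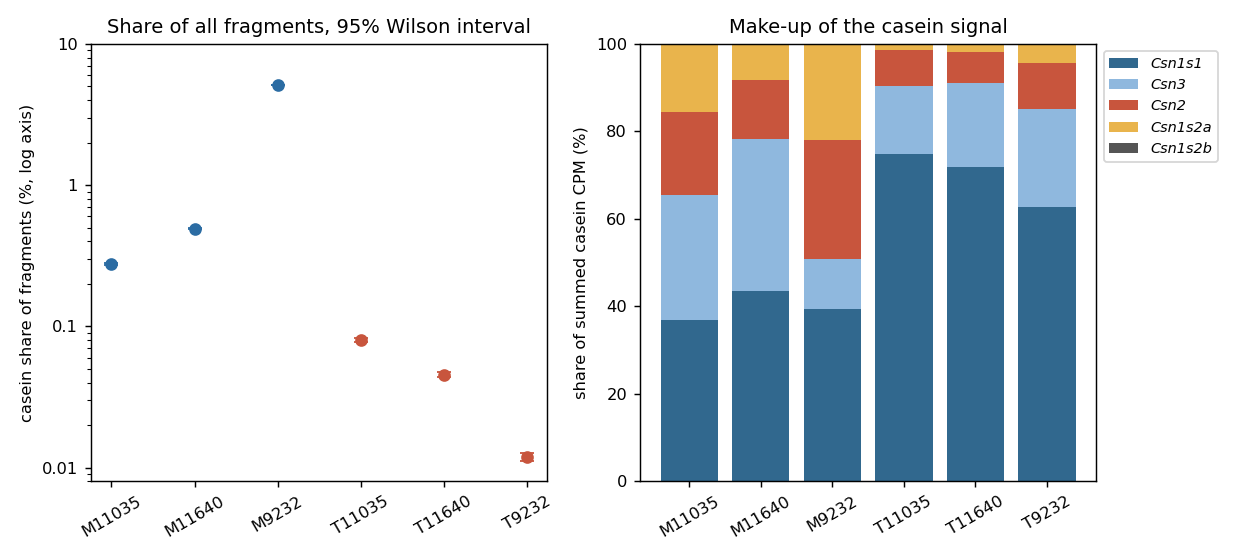
Left, percentage of all fragments on the 5 casein genes in each library (log axis) with 95% Wilson intervals, glands in blue and tumors in red. Right, percentage of the summed casein CPM taken by each casein, where *Csn1s1* makes up 62.8% to 74.9% in the tumors and 36.8% to 43.6% in the glands.

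The whey protein genes were low even in the glands, beside *Csn1s1*, *Csn2*, *Csn1s2a* and *Csn3* at 445 or more CPM per kb of the longest transcript. By this measure *Wap* was at 1.97, 0.685 and 103 and *Lalba* at 4.72, 4.28 and 19.2 CPM per kb. With its shortest transcript, *Wap* was at 7.75, 2.70 and 405 CPM per kb in M11035, M11640 and M9232. *Wap* (mm9 chromosome 11, 6531490 to 6538652) encodes whey acidic protein, the major whey protein of mouse milk. It was measured at 4.27, 1.49 and 223 CPM in the glands and at 0.186, 0.131 and 0 CPM in the tumors. Gland M9232 held 1630 of the 1660 gland fragments, and the 3 tumors held 2 fragments together, so *Wap* entered the table through the glands. The pooled ratio of gland to tumor was 893, with a 95% counting interval of 247 to 7382, and 26.9 (6.83 to 232) without gland M9232. By limma, the log2 fold change was -4.42 (SE 1.46, adjusted p = 0.0392) and -2.36 without gland M9232 (adjusted p = 0.00674). The call was lost without any 1 of the tumors, with adjusted p from 0.0918 to 0.113, and with a pseudocount of 1 (adjusted p = 0.0628).

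*Lalba* (chromosome 15, 98310831 to 98313114) encodes α-lactalbumin, the regulatory subunit of lactose synthase. It was at 3.46, 3.14 and 14.1 CPM in the glands and at 0 in each tumor, where a count of 0 allows up to 0.558, 0.393 and 0.450 CPM. All of its 139 fragments therefore lay in the glands, and it entered the table through them. Set against a floor of 3 fragments over the tumors, *Lalba* was at least 49.9-fold lower in the tumors. Without gland M9232 it was at least 21.5-fold lower. The limma test gave an adjusted p of 9.67e-04, but a gene at 0 in all tumors could only come out lower in them.

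*Glycam1* (chromosome 15, 103393193 to 103395509) encodes a mucin-like glycoprotein that is secreted into milk and is also made by the high endothelial venules of lymph nodes. Its level was 689, 208 and 850 CPM in the glands and 2.61, 1.83 and 3.30 CPM in the tumors. The tumors were nearly equal, the glands differed 4.08-fold, and the distance between the tissues was far larger. The log2 fold change was -7.36 (SE 0.47, adjusted p = 1.15e-05 by limma) and -6.97 without gland M9232. Because of its other source, markers of lymph nodes are given beside it. The sulfotransferase gene *Chst4* of high endothelial venules was at 3.66, 0.661 and 1.50 CPM in the glands and 0 in all tumors, and 4 of the 8 other venule markers were called lower, 3 of 8 without gland M9232. Their sum, *Glycam1* included, was 730 to 1495 CPM in the glands and 175 to 261 CPM in the tumors. Because *Glycam1* is part of this sum, the sum is not separate evidence on venules. The highest of the other venule markers, *Enpp2*, was at 410, 324 and 429 CPM in the glands. It was at 74.99, 71.6 and 119 CPM in the tumors. Of 11 markers of lymph node B cells and stroma, 9 were called lower, with sums of 412 to 988 CPM in the glands and 32.0 to 102 CPM in the tumors. The B cell gene *Ms4a1* was at 175, 78.3 and 155 CPM in the glands and 1.86, 0.917 and 1.50 CPM in the tumors. All 8 T cell markers were called lower as well. What part of the *Glycam1* difference these cells had was not tested.

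*Btn1a1* (chromosome 13, 23548861 to 23557770) encodes butyrophilin, a membrane protein of the milk fat globule. It was measured at 319, 610 and 1655 CPM in the glands and at 16.9, 9.96 and 3.00 CPM in the tumors. The order of the mice was reversed between the tissues, since M9232 was the highest gland and T9232 of the same mouse the lowest tumor. The fitted log2 difference was -6.32 (SE 0.68, adjusted p = 1.54e-04 by limma) and -5.68 without gland M9232. The 3 other butyrophilin genes in the table were also called lower, from *Btnl9* at -4.43 (adjusted p = 5.01e-05) to *Btnl2* at -1.67 (adjusted p = 0.00832, limma).

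*Ltf* (chromosome 9, 110921796 to 110945270) encodes lactoferrin, an iron-binding whey protein that is also stored in the secondary granules of neutrophils. It was at 103, 148 and 500 CPM in the glands and at 44.8, 22.3 and 14.8 CPM in the tumors. The log2 fold change was -2.97 (SE 0.58, adjusted p = 0.00381 by limma) and -2.30 without gland M9232. The iron carrier *Trf*, of the same family and also a milk protein, was at 788, 1673 and 4195 CPM in the glands and 230, 192 and 84.2 CPM in the tumors (log2 fold change -3.51, adjusted p = 0.00158). Of the 12 other neutrophil markers, 3 (*Ngp*, *Lcn2* and *Mpo*) were called lower and 6 higher, and their sum, *Ltf* included, was 402 to 1235 CPM in the glands and 1059 to 1583 CPM in the tumors. The marker with the highest fold change, *S100a8*, was at 16.9, 5.78 and 7.80 CPM in the glands and 183, 182 and 226 CPM in the tumors (log2 fold change 4.34, adjusted p = 2.90e-05 by limma). The secondary granule gene *Ngp* was at 19.5, 6.11 and 6.29 CPM in the glands and 1.12, 1.31 and 0.150 CPM in the tumors. The part of neutrophils in the *Ltf* level was not tested.

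The glands differed among themselves far more in these genes than in most others. The SD of log2(CPM + 0.5) over the 3 glands had a median of 1.88 over the 10 genes and 0.285 over all genes. It was highest for *Wap* at 3.62 and lowest for *Glycam1* at 1.09, a value still above that of 97.3% of all genes. Gland M9232 was at least 4 times each other gland for 6 of the 10 genes, as it was for 150 (0.982%) of all genes. For *Wap* it was 77.5-fold and for *Csn1s2a* 27.3-fold above the mean of the other glands, for *Csn3* 4.80-fold and for *Glycam1* 1.89-fold. With M9232 left out, the SD of the other glands was 0.0196 to 0.893 for 9 of the genes, and that of *Glycam1* fell to 0.214 without M11640 instead. Gland M11640 was above M11035 for 5 of the genes, 2.20-fold for *Csn1s1* and 2.25-fold for *Csn3*, and below it for the other 5, with *Glycam1* at a ratio of 0.303 and *Wap* at 0.348.

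**Figure D4:**
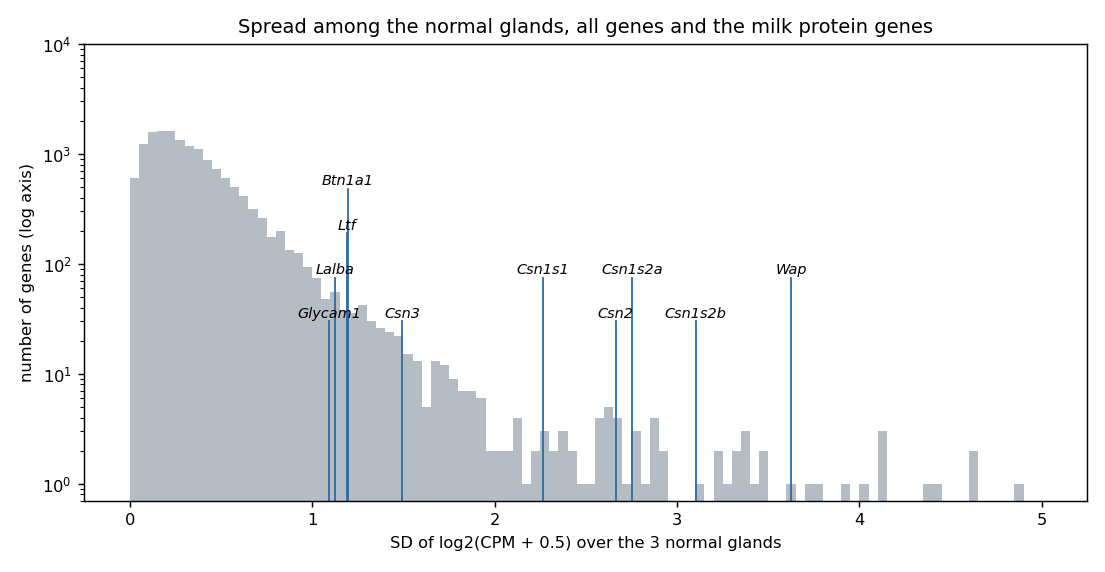
Number of genes (log axis) by the SD of log2(CPM + 0.5) over the 3 normal glands, for all 15280 genes in grey, with the 10 milk protein genes marked by blue lines. The milk protein genes lie between 1.09 and 3.62, whereas the median of all genes is 0.285.

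By the median SD, the tumors differed less. The median SD over the tumors was 0.640 for the milk protein genes and 0.242 for all genes. The tumor SD was 0 for *Lalba* and 0.237 for *Wap*, whose tumor counts were below the floor. For *Btn1a1* it was 1.18, against 1.20 in the glands. Without gland M9232, the tumors had the larger SD for *Csn1s1* (1.48 against 0.803), *Csn2* (1.11 against 0.287), *Csn3*, *Csn1s2a*, *Btn1a1* and *Ltf*. In that setting the glands had the larger SD for *Csn1s2b*, *Wap*, *Lalba* and *Glycam1*. Tumor T9232 was the lowest tumor for 8 of the 10 genes while gland M9232 of the same mouse was the highest gland, a pattern found in 10.5% of all genes. Accordingly, the difference within the mouse of M9232 was the largest of the 3 mice for all 10 genes, from -4.87 for *Lalba* to -10.94 for *Csn1s2a* on the log2 scale. In the mouse of M11035 it ranged from -0.47 for *Csn1s2b* to -7.79 for *Glycam1*. For *Glycam1* the differences were -7.79, -6.48 and -7.81. Leaving out tumor T9232 also brought the log2 fold change nearer to 0, to -5.20 for *Csn2*, -4.28 for *Csn3* and -5.67 for *Btn1a1*. Leaving out gland M11035 or M11640 moved it away from 0, as far as -4.76 for *Csn1s1*, -6.66 for *Csn2*, -8.10 for *Csn1s2a*, -5.60 for *Csn3* and -5.76 for *Wap*. For *Glycam1* it was -7.13 without M11035 and -7.99 without M11640.

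Epithelial content was followed by setting each gene against *Epcam* in the same library. The ratio of *Csn2* to *Epcam* was 4.80, 5.48 and 62.3 in the glands and 0.322, 0.146 and 0.0612 in the tumors. For *Csn1s1* it was 9.39, 17.8 and 90.1 in the glands and 2.92, 1.49 and 0.364 in the tumors. All 10 genes, *Csn1s2b* included, had a lower ratio in each tumor than in each gland, with *Epcam* and likewise with the luminal keratins *Krt8* or *Krt18*. The share of all genes with this order was not computed, so the order is not read as particular to the milk protein genes. The fitted log2 fold change of the markers themselves was 0.56 for *Epcam* (not called), 1.74 for *Krt8* and 1.27 for *Krt18*. Dividing by them therefore lowers the tumor value of any gene. For *Csn1s2b* the order rests on 9 fragments in the glands other than M9232 and 7 in the tumors. Gland M9232 had the highest ratio of the glands for 9 of the 10 genes with each of these markers, the exception being *Glycam1*, which was highest in M11035. These ratios do not separate alveolar from other epithelial cells, and the tumors also held squamous keratins that the glands nearly lacked, such as *Krt6b* at 642 to 771 CPM in the tumors against 0.203 to 0.684 CPM. All 8 squamous markers and 7 of the 10 epithelial markers were called higher in the tumors, the latter led by the basal keratin *Krt14*, with a log2 fold change of 5.75 (adjusted p = 1.27e-05 by limma).

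Levels of the genes were compared with each other as CPM per kb of the longest protein-coding transcript. By this measure *Csn1s1* was the highest in 5 of the 6 libraries, at 1536 and 14428 CPM per kb in M11640 and M9232 and at 401, 237 and 54.7 CPM per kb in the tumors. In M11035, *Glycam1* was above it, at 1102 against 699 CPM per kb. In all 3 tumors *Csn3* and *Csn2* followed in that order, at 74.0, 56.2 and 17.2 CPM per kb and at 55.7, 29.2 and 11.6 CPM per kb. With the longest transcript, the lowest were *Lalba*, *Wap* and *Csn1s2b* in every library. Transcripts of *Csn3* vary from 991 to 1596 bp and those of *Wap* from 551 to 2171 bp in the annotation. The order of some genes therefore depends on the transcript. With the shortest one, *Csn3* was above *Csn1s1* in M11035 and M11640, and *Wap* was above *Ltf* in M9232 (405 against 182 CPM per kb).

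The pathway that acts on these genes was measured through a list of 19 genes of prolactin signaling and alveolar transcription factors. In this list 8 genes were called lower and 3 (*Socs3*, *Cebpb* and *Tnfsf11*) higher, with a median log2 fold change of -0.91. The prolactin receptor *Prlr* was at 258, 389 and 465 CPM in the glands and 88.4, 39.6 and 20.1 CPM in the tumors, the lowest fold change of the list (-3.11, SE 0.47, adjusted p = 9.88e-04 by limma). As for the milk protein genes, M9232 was the highest gland and T9232 the lowest tumor. *Stat5a* was at 30.7, 27.4 and 32.3 CPM in the glands and 10.05, 7.99 and 5.84 CPM in the tumors (log2 fold change -1.88, adjusted p = 2.94e-04). *Stat5b* was at 45.9, 31.4 and 31.5 CPM in the glands and 13.8, 14.8 and 15.0 CPM in the tumors (log2 fold change -1.27, adjusted p = 0.00127 by limma). The glands differed little in *Stat5a*, with M9232 not set apart from the others. The alveolar factor *Elf5* was at 23.2, 36.8 and 82.2 CPM in the glands and 8.75, 6.03 and 5.09 CPM in the tumors (log2 fold change -2.59, adjusted p = 0.00154).

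Not all of the pathway was lower. The kinase *Jak2* was at 186, 165 and 194 CPM in the glands and 255, 250 and 261 CPM in the tumors. Its log2 fold change of 0.49 was below the fold threshold (adjusted p = 0.0150 by limma). *Socs3*, a feedback inhibitor of JAK signaling, was the highest of the list, at 2.85, 1.82 and 2.46 CPM in the glands and 12.1, 15.5 and 17.8 CPM in the tumors (log2 fold change 2.44, adjusted p = 1.42e-04). The STAT5 target *Cish* was at 6.51, 7.76 and 6.57 CPM in the glands and 4.65, 4.46 and 6.59 CPM in the tumors and was not called (log2 fold change -0.39, adjusted p = 0.230). *Socs2* of the same list was at 23.99, 31.22 and 25.03 CPM in the glands and 15.07, 12.45 and 14.39 CPM in the tumors. Its log2 fold change of -0.91 was under the fold threshold (adjusted p = 0.00502 by limma). *Cish* alone therefore does not describe STAT5 output, and STAT5 targets were not tested as a set. Of 7 markers of alveolar and luminal progenitor cells besides *Csn3*, 4 were called lower and 1, *Aldh1a3*, higher at 1.37 (adjusted p = 0.00535). Among 6 markers of hormone-sensing luminal cells, 4 were called lower and 1, *Areg*, higher at 2.88, a call lost without any 1 of the tumors (adjusted p up to 0.0611).

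**Figure D5:**
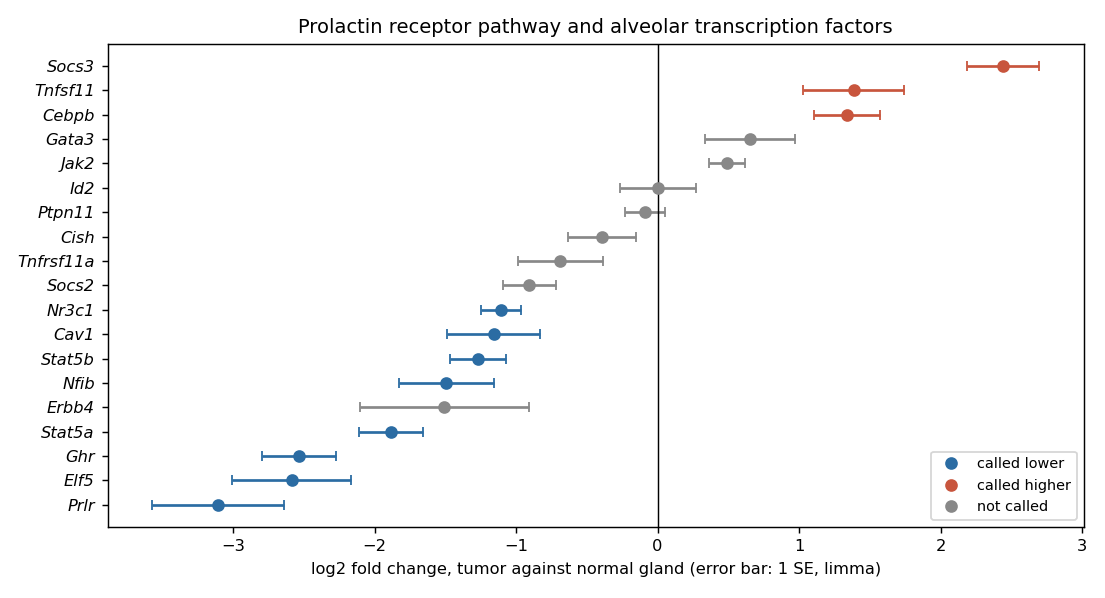
Log2 fold change of tumor against normal gland with 1 SE from limma for the 19 genes of prolactin signaling and alveolar transcription factors, coloured by call. *Prlr* is the lowest at -3.11 and *Socs3* the highest at 2.44, with 8 genes called lower and 3 higher.

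Other genes of milk secretion followed in part. Of 23 other secreted milk proteins and milk fat globule genes, 14 were called lower and 3 (*Lpo*, *Wfdc2* and *Pthlh*) higher, with a median log2 fold change of -1.83. The lowest was the fatty acid carrier *Fabp3* at -4.94 (adjusted p = 3.61e-05 by limma), at 34.4, 18.3 and 60.2 CPM in the glands and 0.744, 0.655 and 0.450 CPM in the tumors. The highest was lactoperoxidase, *Lpo*, at 3.03 (adjusted p = 0.00291), with 0.203, 0 and 2.05 CPM in the glands and 8.37, 6.95 and 6.89 CPM in the tumors. *Mfge8*, a fat globule protein named here for its role after its values were seen, was at 143, 159 and 436 CPM in the glands and 50.1, 66.1 and 65.0 CPM in the tumors (log2 fold change -1.83, adjusted p = 0.00521). *Lpl*, *Cd36* and *Cidea* of this list are also adipocyte genes. Without gland M9232, 12 of the 23 were called lower and 3 higher.

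The genes of lactose synthesis behaved differently from *Lalba*. Of 11 genes, 1 (*Ugp2*) was called lower and 2 (*Slc2a1* and *Pgm1*) higher, with a median log2 fold change of 0.03. *B4galt1*, the catalytic partner of α-lactalbumin, was at 128, 141 and 216 CPM in the glands and 218, 251 and 289 CPM in the tumors and stayed under the fold threshold at 0.67 (adjusted p = 0.0333 by limma). It was named after its values were seen. The glucose transporter *Slc2a1* was higher in the tumors by 2.96 (adjusted p = 1.82e-05). *Ugp2*, which makes UDP-glucose, was lower by -1.04 (adjusted p = 0.00271), a change that fell under the fold threshold without gland M11640 or tumor T11035, where it was as small as 0.87.

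Genes around the caseins on chromosome 5 did not all move with them. Of the 5 other genes there that were in the table (*Sult1d1*, *Igj*, *Utp3*, *Rufy3* and *Grsf1*), only *Igj* was called, as lower. *Igj*, which joins immunoglobulin chains in plasma cells, was at 331, 1078 and 1178 CPM in the glands and 8.37, 20.4 and 26.4 CPM in the tumors (log2 fold change -5.46, adjusted p = 9.81e-05 by limma). *Utp3*, which lies beyond *Igj*, was at 95.4, 101 and 103 CPM in the glands and 103, 104 and 99.9 CPM in the tumors. Among the 6 genes with a WAP four-disulfide core besides *Wap*, 0 were called lower and 2 higher, led by *Wfdc5* at 4.99 (adjusted p = 6.04e-05), and edgeR's quasi-likelihood test called 1, *Expi*, lower.

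Involution and acute phase genes, which rise in the gland after weaning, were mixed, with 4 of 20 (*Lcn2*, *Lrg1*, *Igfbp5* and *Il6st*) called lower and 5 (*Saa3*, *Mmp3*, *Socs3*, *Timp3* and *Lif*) higher and a median log2 fold change of -0.03. The highest was *Saa3*, at 0.813, 0.661 and 9.03 CPM in the glands and 131, 118 and 442 CPM in the tumors (log2 fold change 6.28, adjusted p = 4.20e-04 by limma). The lowest was *Lcn2*, at 90.9, 251 and 593 CPM in the glands and 111, 73.7 and 39.0 CPM in the tumors, with a call (-1.79, adjusted p = 0.0474) that was lost with the mouse as a block (adjusted p = 0.0719). The calls of *Lcn2*, *Igfbp5* and *Lif* were each lost without any 1 library other than gland M11035. Without tumor T11035, *Il6st* fell under the fold threshold too. Without gland M9232, 2 genes (*Lrg1* and *Il6st*) were called lower and 5 higher, with *Cd14* in place of *Lif* (log2 fold change 1.38, adjusted p = 0.00873 by limma).

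The genes whose level over the 6 libraries was most like the mean casein profile, by Pearson r of log2(CPM + 0.5), were *Tfeb* (0.997), *Ogfrl1* (0.992), *1110018G07Rik* (0.989), *Myo5c* (0.988) and *Gm1332* (0.987). *Ogfrl1* was at 250, 339 and 919 CPM in the glands and 91.7, 85.3 and 64.7 CPM in the tumors. *Myo5c*, an unconventional myosin of secretory epithelia, was at 12.2, 13.4 and 37.8 CPM in the glands and 4.09, 2.62 and 1.65 CPM in the tumors, and it was also the nearest to *Ltf* (0.995). For *Glycam1* the nearest were *Hdgfrp3*, *Exoc6* and *Rbl2*, for *Btn1a1* *Wrn*, *Irx1* and *Rgl3*, for *Lalba* *Scn3b*, *Kctd21* and *Pi4kb*, and for *Wap* *H2-T23*, *Ttc39a* and *Fam13b*, with r from 0.986 to 0.999. The libraries fall into 2 tissues and the value of M9232 weighs heavily, so these r describe a shared order of 6 points and no more.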

How the data were processed

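All 6 libraries were used, with each sample's tissue and mouse taken from the labels. According to the study's methods and the submitters' processing notes, the authors mapped read pairs to mm9 (TopHat2 2.0.3), counted fragments per RefSeq gene (HTSeq 0.5.3p9) and removed genes with fewer than 10 fragments over all samples. Whether counting used strand was not given in the sources used here. The authors deposited a normalized signal per gene, in CPM on edgeR's effective library size (edgeR 3.6.1), so columns do not share 1 total. In every library, 100% of values were whole multiples of 1 step (tolerance 0.01), which gave back the fragments. Per-sample columns left out numbered 0.

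Genes were tested with limma 3.58.1 (R 4.3.3) with no block and a trended prior variance on log2(CPM + 0.5), as a two-sided test, and p was adjusted by the Benjamini-Hochberg method across 15280 genes. A test planned for CPM was kept for this signal. The fold change on this scale understates the change of low genes. Fold and p thresholds followed the study's methods. Single values were compared by exact permutation tests over the 6 libraries, which did not use the pairing by mouse. Alternatives were other pseudocounts (0.1 and 1), a mean of at least 1 CPM, scaling to the plain total, edgeR 4.0.16, DESeq2 1.42.0, each library left out, and the mouse as a block. Each mouse number names 1 animal that gave both tissues, so the numbers pair the samples. Over 14712 genes, deviations of gland and tumor correlated with r = 0.107, 0.151 and 0.0168 in the mice of M11035, M11640 and M9232. All libraries shared 1 sequencing lane. No library was a copy of another (lowest chi-square per degree of freedom 13.0). On simulated counts for 15280 genes of the tumor and gland comparison, the fit recovered 80.0% of 100 genes changed by an absolute log2 fold of 2 and 97.0% of 100 changed by 4.

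The genes described, the lists and the motif were chosen with earlier results of these data known. From the list of casein neighbours, *1700034J05Rik* was left out of the count because GENCODE vM1 places it on another chromosome. Named from each list were the highest and lowest fold change, the main prolactin pathway genes, and the 5 (caseins) or 3 (other genes) most alike profiles with a mean of at least 1 CPM. Other names, given for counts of 5 or fewer or for a gene's role, were chosen after the values were seen. Marker lists for plasma cells (3 of 5 called lower, 1 higher), endothelial cells (2 of 5 lower), and salivary gland (1 gene in the table, *Amy1*, lower) were also counted. Positions, transcript lengths and overlaps came from GENCODE vM1 (mm9), where no exon of another gene overlapped the 10 genes. Transcripts were compared with BLAST 2.17.0 (at least 76 bp and 80% identity), and promoters came from RefSeq (GRCm38.p6).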

Additional observations from a re-analysis of the deposited data

How the results depend on the processing

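Over all alternatives, 147 refitted fold changes of the 10 genes kept their direction and their side of the threshold, 7 lost the call, 2 gained it and 0 reversed. With the replicate block, the pairing by mouse left 9 genes called lower in limma and changed no call of the 10 genes, and the highest adjusted p among the called genes was 0.0387 (*Csn1s1*). In the lists, the block changed the call of 2 named genes, *Lcn2* (lost, adjusted p = 0.0719) and *Myh4* (called lower, adjusted p = 0.0199). With edgeR's quasi-likelihood test and the replicate block, a fit added after the data were seen, *Csn1s1* was not called (-3.34, adjusted p = 0.0861) and *Csn1s2b* was called (-4.89, adjusted p = 0.0201). Leaving out each library in turn gave 7 to 9 genes called lower and 0 higher, and 9 were called lower without M9232 and T9232 together, also added later. edgeR's quasi-likelihood test called 10 lower and a pseudocount of 1 left 8. DESeq2 gave an adjusted p for 6 of the genes, all called lower. It gave none for *Csn1s2a*, *Csn1s2b*, *Csn2* and *Wap*, so it says nothing on their calls. These are the genes in which gland M9232 was furthest above the mean of the other glands, from 24.0-fold (*Csn2*) to 77.5-fold (*Wap*). Over all genes the lower calls ranged from 1822 to 2224. Fold changes ranged over the alternatives from -9.30 to -2.23 for *Wap*, from -4.76 to -1.75 for *Csn1s1*, from -7.15 to -3.67 for *Csn2* and from -7.99 to -6.97 for *Glycam1*. With 3 mice and 2 to 149 fragments over the tumors for *Wap*, *Csn1s2b*, *Glycam1* and *Csn1s2a*, counting error limits how well their tumor levels are known, and 3 against 3 libraries cannot give an exact p under 0.1.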
